A study of Homo sapiens with 18 samples.

Results

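Transcripts of 10 feedback inhibitors of growth factor signalling were followed through normoxia and hypoxia in 3 human cell lines: the Sprouty genes SPRY1, SPRY2 and SPRY4, the Sprouty-related genes SPRED1, SPRED2 and SPRED3, the ERK phosphatase genes DUSP4, DUSP5 and DUSP6, and ERRFI1. They are 10 of the 23106 genes counted in the deposited tables. SPRY1 was selected on its large hypoxic rise in HKC-8 cells in these same libraries, so its hypoxic values are given as a description with no test. The other 9 genes were chosen by the function of their families, to ask whether they followed SPRY1, with earlier results of these data known. They were read from tests fitted across all genes.

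Receptor tyrosine kinases pass growth factor signals through RAS, RAF and MEK to the kinase ERK, and ERK then switches on the genes of its own inhibitors. Sprouty proteins act between the receptor and RAF, SPRED proteins bring the RAS inactivator neurofibromin to the membrane, DUSP phosphatases remove the activating phosphates from ERK, and ERRFI1 blocks the kinase domain of the EGF receptor family. Transcripts of these inhibitors are widely used as a readout of ERK activity, and receptor signalling of this kind drives growth in kidney tubule and liver cells.

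HKC-8 is an immortalised human kidney proximal tubule line, and HepG2 is a hepatocellular carcinoma line. RCC4 is a kidney cancer line that had lost VHL, the protein that marks hypoxia-inducible factor (HIF) for destruction in normoxia. The RCC4 cells used here had been stably transfected with VHL (RCC4+VHL), and the sources used here do not say whether they were 1 clone. Each line was represented by 3 normoxic and 3 hypoxic samples of polyA+ RNA, 18 in all. Hypoxic HKC-8 and HepG2 samples were labelled 0.5% oxygen for 16 h, although the HKC-8 titles read 0.1, and hypoxic RCC4 samples were labelled 1.0% oxygen for 24 h. The written description of the study gives every line the same exposure, so whether RCC4 cells were exposed differently is not settled, and their values are set beside those of the other lines with no test of the difference in response.

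Sequencing was deepest for HKC-8, at 75441764 to 97984260 total counts per sample, while RCC4 samples held 42045335 to 51794355 and HepG2 samples 40915980 to 48355303. All 8 liver marker genes examined were present in HepG2 cells, with ALB, the albumin gene, at 10719 CPM (counts scaled to library size) in normoxia, against 0.0121 in HKC-8 and 0 in RCC4. The kidney factor PAX8 stood at 165 CPM in HKC-8 and 132 in RCC4, while of the other kidney markers in normoxic HKC-8 cells, CDH16 (3.21 CPM) and ANPEP (2.82) were low and PAX2, LRP2, CUBN, AQP1 and SLC34A1 were below 1 CPM. Group means of leukocyte and endothelial markers reached at most 2.53 CPM (CDH5 in hypoxic HKC-8). With hypoxia, 1 of 4 kidney markers tested rose in HKC-8 (CUBN, log2 fold change 3.29), 1 of 7 rose and 4 fell in RCC4, and 2 of 4 rose in HepG2. In HepG2, 3 of 8 liver markers also rose and 1 fell. The part of these markers in the results was not tested. The shares of all genes called in each line are given below, beside the counts of members. Of 10 hypoxia reference genes, all rose in HKC-8 and HepG2, and the 8 that could be tested in RCC4 rose there. Libraries of HKC-8 with the same replicate number deviated together, but only weakly for number 1. Those of number 2 stood highest for many of the feedback inhibitors, as described after the single genes. Nothing in the labels states that replicates were separate cultures, so p-values measure the spread between these samples.

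SPRY1 was the scarcest of the 10 transcripts in normoxic HKC-8 cells and was many times higher in every hypoxic HKC-8 sample. It lies on chromosome 4 (GRCh37, 124317950 to 124324915, forward strand) and encodes the first of the Sprouty inhibitors of RAS-ERK signalling. Normoxic HKC-8 samples held 27, 19 and 26 SPRY1 counts, and hypoxic samples held 577, 716 and 573. As CPM scaled by TMM, which is the scale of all levels given here, these were 0.324, 0.234 and 0.286 in normoxia and 7.23, 7.32 and 6.94 in hypoxia. The groups were far apart, with little spread within either, and the fitted fold was 25.4 (log2 fold change 4.67 ± 0.19, SE). CPM of bulk RNA cannot tell more transcript in each cell from more cells that hold it.

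The difference was not confined to HKC-8 cells. In RCC4, SPRY1 stood at 1.88, 1.43 and 1.71 CPM in normoxia and at 5.83, 4.98 and 5.09 CPM in hypoxia, a fold of 3.18 (log2 fold change 1.67 ± 0.15, SE). In HepG2, it stood at 51.7, 45.9 and 56.8 CPM in normoxia and at 65.3, 61.9 and 68.1 CPM in hypoxia, a fold of 1.26 (log2 fold change 0.34 ± 0.08, SE). In each line, every hypoxic sample lay above every normoxic one. The 6 groups ran in the order normoxic HKC-8 (0.281 ± 0.0450 CPM, SD, n = 3), normoxic RCC4 (1.67 ± 0.225), hypoxic RCC4 (5.30 ± 0.462), hypoxic HKC-8 (7.16 ± 0.200), normoxic HepG2 (51.5 ± 5.42) and hypoxic HepG2 (65.1 ± 3.11), and the sample ranges of neighbours in that order did not overlap. The line with the largest fold had the lowest starting level, and hypoxic HKC-8 cells still held less SPRY1 than HepG2 cells in normoxia.

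**Figure D1:**
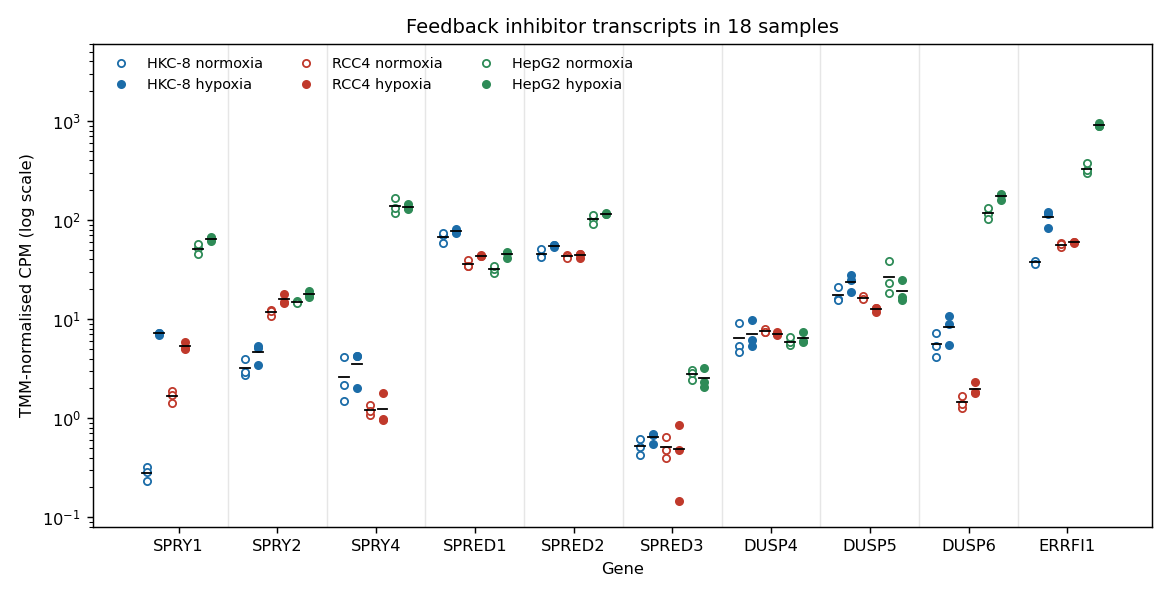
Level of each feedback inhibitor in all 18 samples, as TMM-normalised CPM on a log axis, with open circles for normoxic and filled circles for hypoxic samples, 1 colour per cell line and a black dash at each group mean (n = 3). SPRY1 in HKC-8 moved from a mean of 0.281 to 7.16 CPM, ERRFI1 was the most abundant member in HepG2 with a hypoxic mean of 908 CPM, and DUSP4 stayed within 4.63 to 9.75 CPM in every sample.

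Since SPRY1 and ERRFI1 had the largest hypoxic differences in HKC-8 and DUSP6 is a common readout of ERK activity, the 250 bases before their RefSeq transcription start are shown. HIF binds DNA at a short core, searched here as ACGTG or GCGTG on either strand, and capitals mark a match. The windows, from the RefSeq table of GRCh38.p14, matched GRCh37 at a single place each, chr4:124317700-124317949 (forward strand), chr12:89746279-89746528 (reverse strand) and chr1:8086370-8086619 (reverse strand), and are written 5′ to 3′ in the direction of transcription.
SPRY1: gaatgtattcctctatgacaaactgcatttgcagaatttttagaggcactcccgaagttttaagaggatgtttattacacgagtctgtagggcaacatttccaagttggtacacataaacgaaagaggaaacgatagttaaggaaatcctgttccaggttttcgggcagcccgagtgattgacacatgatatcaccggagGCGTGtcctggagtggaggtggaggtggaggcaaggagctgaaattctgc
DUSP6: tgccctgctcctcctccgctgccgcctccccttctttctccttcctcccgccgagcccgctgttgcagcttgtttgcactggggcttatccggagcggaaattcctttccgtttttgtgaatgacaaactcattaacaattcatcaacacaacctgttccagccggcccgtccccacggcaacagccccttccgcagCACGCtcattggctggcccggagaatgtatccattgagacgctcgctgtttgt
ERRFI1: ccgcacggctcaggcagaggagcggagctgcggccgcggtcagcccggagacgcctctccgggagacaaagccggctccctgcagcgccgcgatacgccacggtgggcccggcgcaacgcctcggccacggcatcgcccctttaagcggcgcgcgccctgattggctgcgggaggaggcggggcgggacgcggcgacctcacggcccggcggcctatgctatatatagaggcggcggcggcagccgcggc

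SPRY1 had 2 windows in the table. The one shown held 1 match, which began 50 bases before the start, and the other, at chr4:124319291-124319540, held none. In DUSP6 the match lay on the opposite strand and began 53 bases before the start. The ERRFI1 window held no match, which says only that these letters were absent from it. Windows of 8 of the 10 members were searched, and 3 of the 8 (SPRY1, SPRED2 and DUSP6) held a match in any window. Counted by window, 3 of 13 member windows (23.1%) held a match, against 43.2% of the 35116 windows of all genes, so the core was no more frequent among the members; counted by gene, the shares were 37.5% and 47.4%. A match is a description of sequence and not a bound site. DUSP5 had no entry in the table. DUSP4 was left out of the search of members and its sequence is not shown, while the shares of all genes left no gene of the table out.

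SPRY2 rose modestly in RCC4 and HepG2 cells, and SPRY4 passed the test in no line. Both genes encode Sprouty proteins of the same kind as SPRY1, on chromosome 13 (80910111 to 80915261) and chromosome 5 (141689992 to 141706020). SPRY2 in HKC-8 was 2.73, 3.99 and 2.96 CPM in normoxia and 5.10, 5.30 and 3.42 CPM in hypoxia. The groups overlapped, because the lowest hypoxic sample lay below the highest normoxic one. The log2 fold change was 0.52 ± 0.22 (SE), with an adjusted p of 0.124 in the quasi-likelihood test of edgeR, and 0.0214 with the replicate number as a block.

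In RCC4, SPRY2 was 12.3, 10.8 and 12.1 CPM in normoxia and 17.97, 14.5 and 15.0 CPM in hypoxia. The groups were apart, and SPRY2 rose 1.35-fold (log2 fold change 0.44 ± 0.09, SE; edgeR adjusted p = 0.000217). In HepG2, it was 15.3, 14.8 and 14.7 CPM in normoxia and 19.4, 17.5 and 16.8 CPM in hypoxia, and rose slightly (log2 fold change 0.26 ± 0.09, SE; edgeR adjusted p = 0.0255). The HepG2 call was lost when normoxic sample 1 (adjusted p = 0.0551), hypoxic sample 1 (0.144) or hypoxic sample 2 (0.0546) was left out, and in 1 fit of all 18 samples (0.2).

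SPRY4 was plentiful in HepG2 and scarce in both kidney lines. In HKC-8 it was 2.17, 4.15 and 1.496 CPM in normoxia and 4.20, 4.28 and 2.01 CPM in hypoxia, with sample 2 of each condition highest and sample 3 lowest. The log2 difference of 0.43 ± 0.39 (SE) did not pass (edgeR adjusted p = 0.469, and 0.0607 with the block). RCC4 samples held 1.34, 1.07 and 1.19 CPM in normoxia and 0.969, 0.981 and 1.78 CPM in hypoxia, where 1 hypoxic sample lay above all others and 2 lay below. HepG2 samples held 118, 132 and 165 CPM in normoxia and 133, 129 and 147 CPM in hypoxia, with overlapping groups. The log2 differences were 0.05 ± 0.27 (SE) in RCC4 and -0.02 ± 0.10 (SE) in HepG2, and each changed sign when single samples were left out.

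SPRED1 rose in RCC4 and HepG2, SPRED2 rose slightly in HepG2, and SPRED3 was scarce and passed in no line. Both SPRED1, the gene mutated in Legius syndrome (chromosome 15, 38545037 to 38649450), and SPRED2 (chromosome 2, 65537985 to 65659771) encode adaptors that hold neurofibromin near RAS. In HKC-8, SPRED1 was 70.3, 74.3 and 58.5 CPM in normoxia and 81.4, 76.7 and 73.8 CPM in hypoxia. The groups overlapped by a small margin, and the log2 difference of 0.20 ± 0.10 (SE) had an edgeR adjusted p of 0.190, or 0.0321 with the block. In RCC4 the levels were 39.2, 34.6 and 34.0 CPM in normoxia and 43.0, 43.2 and 44.1 CPM in hypoxia, and in HepG2 it was 29.2, 32.0 and 34.4 CPM in normoxia and 46.6, 47.5 and 41.5 CPM in hypoxia. Neither pair of groups overlapped, and SPRED1 rose 1.21-fold in RCC4 (log2 fold change 0.28 ± 0.05, SE; edgeR adjusted p = 0.000192) and 1.42-fold in HepG2 (0.50 ± 0.08, SE; 0.000288).

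SPRED2 moved by small amounts. In HKC-8 it was 43.5, 51.0 and 42.6 CPM in normoxia and 53.3, 56.3 and 55.4 CPM in hypoxia, with every hypoxic sample above every normoxic one. The log2 difference of 0.27 ± 0.09 (SE) lay close to the threshold, with an edgeR adjusted p of 0.0628, and of 0.0067 with the block. For HepG2 the values were 103, 91.4 and 111 CPM in normoxia and 115, 117 and 116 CPM in hypoxia, a 1.14-fold rise (log2 fold change 0.19 ± 0.07, SE; edgeR adjusted p = 0.0426). That call was lost when any sample other than normoxic sample 3 was left out, with adjusted p-values up to 0.125, and in 1 fit of all 18 samples (0.0665). In RCC4 the 6 samples lay between 41.2 and 45.0 CPM with no separation (log2 difference 0.03 ± 0.05, SE).

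SPRED3, the third SPRED gene (chromosome 19, 38879061 to 38890227), was 0.516, 0.616 and 0.429 CPM in normoxic HKC-8 and 0.689, 0.552 and 0.678 CPM in hypoxic HKC-8. RCC4 gave 0.652, 0.477 and 0.398 CPM in normoxia and 0.144, 0.480 and 0.849 CPM in hypoxia, the widest relative spread of any member in any group. HepG2 gave 3.08, 2.42 and 2.84 CPM in normoxia and 2.31, 2.06 and 3.23 CPM in hypoxia. All 3 pairs of groups overlapped, and none of the log2 differences, 0.30 ± 0.28 (SE) for HKC-8, -0.06 ± 0.45 for RCC4 and -0.14 ± 0.19 for HepG2, passed the edgeR test.

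Among the phosphatase genes, DUSP6 rose in HepG2, DUSP5 fell in RCC4, and DUSP4 passed in no line. DUSP6 encodes a cytoplasmic phosphatase that acts on ERK (chromosome 12, 89741012 to 89746278). Its HepG2 level was 116, 104 and 132 CPM in normoxia and 178, 161 and 185 CPM in hypoxia, well apart, a 1.49-fold rise (log2 fold change 0.57 ± 0.08, SE; edgeR adjusted p = 0.000109). In HKC-8 it was 5.36, 7.24 and 4.16 CPM in normoxia and 9.03, 10.8 and 5.46 CPM in hypoxia. The HKC-8 groups overlapped because sample 3 was low in both conditions, and the log2 difference of 0.60 ± 0.27 (SE) had an edgeR adjusted p of 0.146, against 0.00227 with the block. Its RCC4 level was 1.68, 1.27 and 1.40 CPM in normoxia and 1.83, 2.32 and 1.80 CPM in hypoxia, apart but low, with a log2 difference of 0.46 ± 0.21 (SE) that did not pass (edgeR adjusted p = 0.0774). The 3 estimates for DUSP6 were of like size, 0.46 to 0.60, with standard errors that differed more than the estimates did.

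DUSP5 encodes a nuclear ERK phosphatase (chromosome 10, 112257665 to 112271291), and its estimates had opposite signs in the lines. RCC4 samples held 16.4, 17.1 and 15.9 CPM in normoxia and 11.9, 13.0 and 13.1 CPM in hypoxia, and it fell by 0.38 ± 0.07 (SE) on the log2 scale, with no overlap of samples (edgeR adjusted p = 0.000167). The call was lost in 1 fit of all 18 samples (adjusted p = 0.24). HKC-8 samples held 16.1, 20.9 and 15.7 CPM in normoxia and 24.9, 28.1 and 18.6 CPM in hypoxia, so that each hypoxic sample lay above the normoxic sample of its number while the groups overlapped. The log2 difference was 0.44 ± 0.17 (SE; edgeR adjusted p = 0.0927, and 0.00273 with the block). In HepG2 it was 18.4, 23.3 and 38.9 CPM in normoxia and 16.8, 15.5 and 24.8 CPM in hypoxia, with sample 3 highest in both conditions. The HepG2 difference of -0.50 ± 0.23 (SE) did not pass (edgeR adjusted p = 0.0985), but it passed without normoxic sample 1 (-0.71, adjusted p = 0.0165), without hypoxic sample 3 (-0.73, 0.041) or with no filter on low counts (0.0369). It also passed with the replicate number as a block (-0.46, edgeR adjusted p = 0.00151).

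DUSP4 encodes a nuclear phosphatase of ERK and the stress kinase JNK (chromosome 8, 29190581 to 29208201). In HKC-8 it was 5.34, 9.19 and 4.63 CPM in normoxia and 6.12, 9.75 and 5.401 CPM in hypoxia, so sample 2 stood well above the others in both conditions. The RCC4 samples were 7.94, 7.37 and 7.44 CPM in normoxia and 7.07, 6.93 and 7.37 CPM in hypoxia. Those of HepG2 were 5.44, 5.82 and 6.56 CPM in normoxia and 6.07, 5.88 and 7.40 CPM in hypoxia. The log2 differences of 0.16 ± 0.29 (SE) for HKC-8, -0.09 ± 0.10 for RCC4 and 0.12 ± 0.13 for HepG2 did not pass the edgeR test, and the HKC-8 value changed sign when single samples were left out.

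ERRFI1 was the only gene of the 9 called in the edgeR fit of the HKC-8 samples without the block. It rose by nearly the same fold in HKC-8 and HepG2. It encodes an inhibitor that binds the EGF receptor and its relatives directly (chromosome 1, 8064464 to 8086369). In HKC-8 it was 37.8, 38.4 and 36.3 CPM in normoxia and 116, 82.9 and 119.5 CPM in hypoxia. All 3 hypoxic samples stood far above the normoxic ones, with sample 2 the lowest of them, and the rise was 2.84-fold (log2 fold change 1.51 ± 0.13, SE; edgeR adjusted p = 0.00016). In HepG2 it was 297, 319 and 377 CPM in normoxia and 888, 887 and 948 CPM in hypoxia, a 2.74-fold rise (log2 fold change 1.46 ± 0.08, SE; edgeR adjusted p = 1.46e-08). In RCC4 it was 58.6, 53.5 and 57.8 CPM in normoxia and 58.2, 60.0 and 60.3 CPM in hypoxia. The RCC4 groups overlapped, and the log2 difference of 0.08 ± 0.05 (SE) did not pass (edgeR adjusted p = 0.175).

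**Figure D2:**
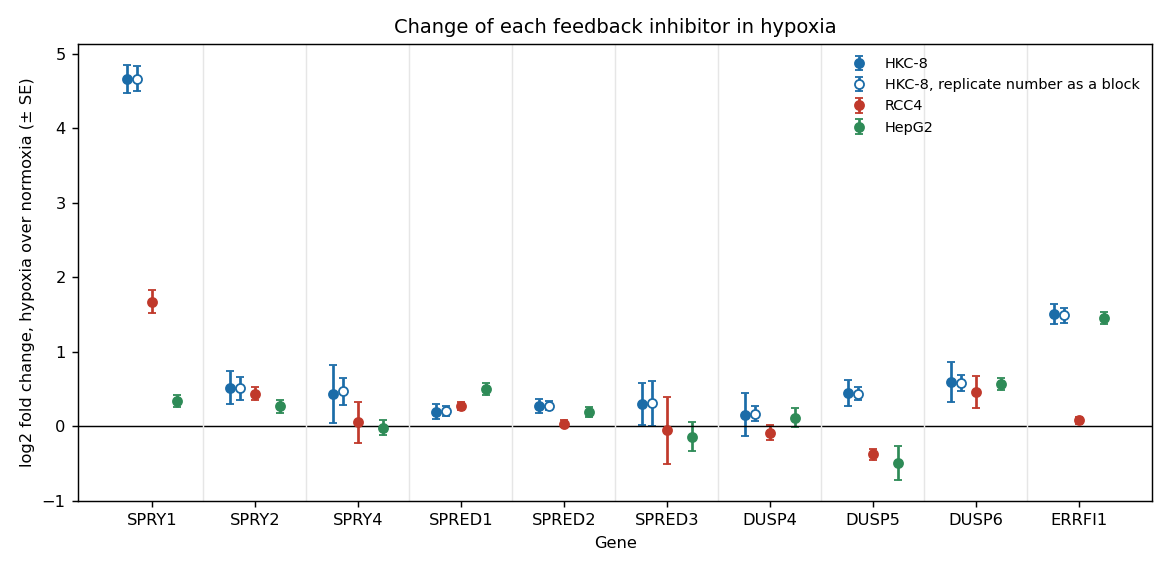
Log2 fold change of hypoxia over normoxia with its standard error for each gene (3 against 3 samples per line), with open circles for HKC-8 when the replicate number was a block. SPRY1 in HKC-8 (4.67) stands above all others, ERRFI1 is near 1.5 in HKC-8 (1.51) and HepG2 (1.46) but at 0.08 in RCC4, and DUSP5 lies above 0 in HKC-8 (0.44) and below 0 in RCC4 (-0.38) and HepG2 (-0.50).

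None of the other feedback inhibitors matched the size of the SPRY1 difference in HKC-8, where ERRFI1 was next at 2.84-fold. All 9 could be tested in each line. In HKC-8, 1 of the 9 was called induced (ERRFI1) and 0 were called repressed at an adjusted p under 0.05 in edgeR, where 11.2% of all 13536 genes tested were called induced and 9.12% repressed. This count of members was no larger than the background. At an unadjusted p under 0.05, 4 of the 9 were higher and 0 lower, against 18.7% and 17.1% of all genes. DESeq2 called 3 higher (SPRED2, DUSP5 and ERRFI1) and 0 lower, against 13.9% and 12.1%, and 1 edgeR fit of all 18 samples called 4 higher (SPRY2, SPRED2, DUSP6 and ERRFI1) and 0 lower, against 16.4% in each direction. With the replicate number as a block, 6 of the 9 were called induced (SPRY2, SPRED1, SPRED2, DUSP5, DUSP6 and ERRFI1) and 0 repressed, where 21% of all genes were induced and 21.6% repressed. In RCC4, 2 were induced (SPRY2 and SPRED1) and 1 was repressed (DUSP5), against 25.9% and 24.2% of all 12811 genes. In HepG2, 5 were induced (SPRY2, SPRED1, SPRED2, DUSP6 and ERRFI1) and 0 were repressed, against 19.9% and 19.2% of all 13623 genes; at an unadjusted p under 0.05, 1 was lower (DUSP5), against 23.6%, and DESeq2 called 0 lower, against 19%.

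For the 9 genes together the median log2 fold change was largest in HKC-8 (0.43), followed by HepG2 (0.19) and RCC4 (0.05), while over all genes tested it was 0.00 in each line. No member but SPRY1 and ERRFI1 reached a log2 fold change of 1 in any line. SPRY2 and SPRED1 were called induced in both RCC4 and HepG2, and had the same sign in HKC-8 (0.52 and 0.20). The share of members called in RCC4 was no larger than that of all genes, and nothing particular to the group is read from it.

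The replicate numbers bore on most of these genes in HKC-8. Sample number 2 was the highest of 3 in both conditions for 6 of the 10 members (SPRY2, SPRY4, SPRED2, DUSP4, DUSP5 and DUSP6), against 23.4% of all genes tested. For SPRY4, SPRED1, DUSP4, DUSP5 and DUSP6, sample 3 was the lowest in both conditions, and the share of all genes lowest there was not counted. DUSP4 gives the plainest case: sample 2 stood at 9.19 and 9.75 CPM, sample 1 at 5.34 and 6.12 CPM, and sample 3 at 4.63 and 5.401 CPM, so sample 2 lay farther from the others than hypoxia moved any of them. ERRFI1 and SPRY1 did not have this pattern. Among 10 ERK output genes, 5 (ETV4, ETV5, FOSL1, CCND1 and EPHA2) were also highest in number 2 in both conditions. Without both HKC-8 samples of number 2, 1 of the 9 genes was still called induced. The part of ERK output in this spread was not tested.

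HepG2 had a like pattern for another number. Sample 3 was the highest in both conditions for 6 of the 10 members (SPRY1, SPRY4, DUSP4, DUSP5, DUSP6 and ERRFI1), against 17.5% of all genes tested, and for 6 of 9 ERK output genes. DUSP5 had the widest spread, with sample 3 at 38.9 CPM in normoxia and 24.8 CPM in hypoxia while the other 4 samples lay between 15.5 and 23.3 CPM. In RCC4, 2 of the 10 members were highest in number 1 in both conditions and none in number 2 or 3, against 11.5%, 11% and 13.3% of all genes.

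**Figure D3:**
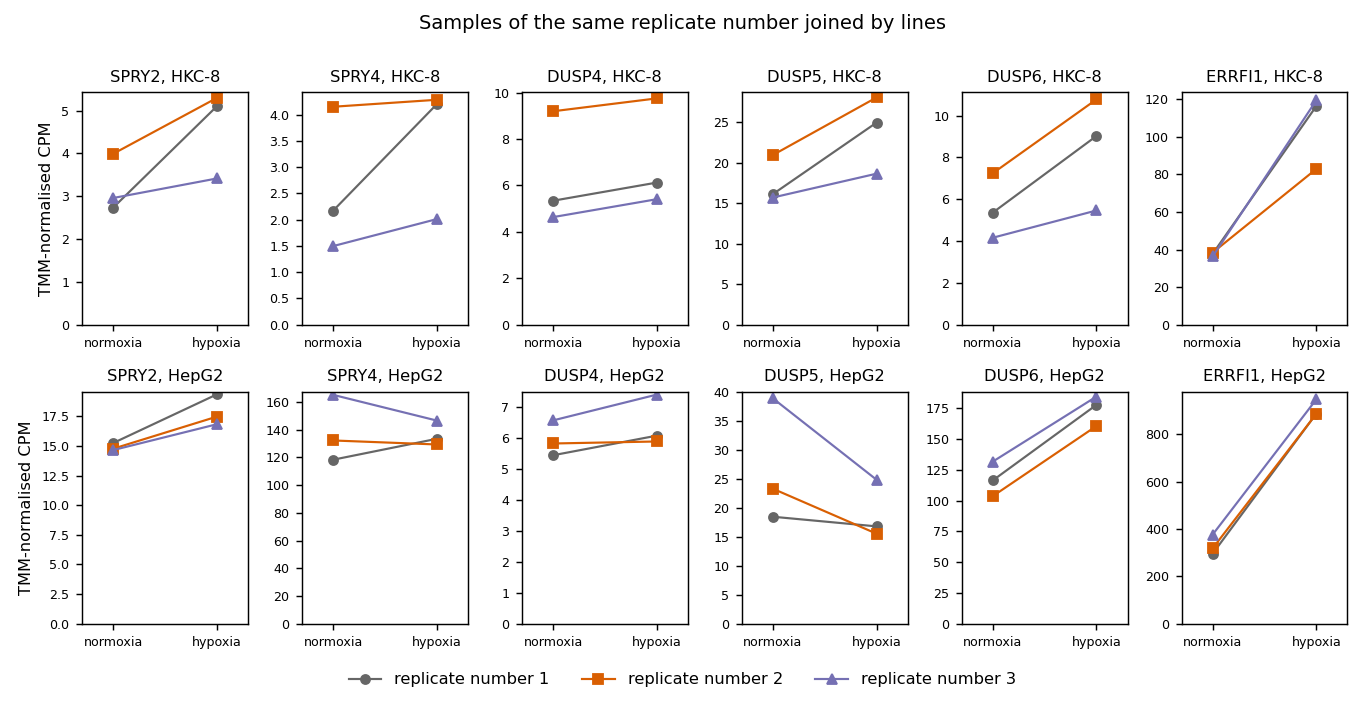
TMM-normalised CPM (axes from 0) of 6 feedback inhibitors in normoxia and hypoxia, with a line joining the samples of 1 replicate number, for HKC-8 (top) and HepG2 (bottom). In HKC-8 all 6 genes rise in each of the 3 numbers. For number 2, SPRY2, SPRY4, DUSP4, DUSP5 and DUSP6 run from the highest normoxic to the highest hypoxic value (DUSP4: 9.19 to 9.75 CPM). ERRFI1 of number 2 runs from the highest normoxic to the lowest hypoxic value (38.4 to 82.9 CPM). In HepG2 DUSP5 falls most steeply in number 3 (38.9 to 24.8 CPM).

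HKC-8 and HepG2 had the same labelled exposure, although the HKC-8 titles read 0.1. None of the 9 genes was called for a difference between these lines in the response to hypoxia. In the interaction test of edgeR over 12 samples, 0 of the 9 passed, against 9.3% of all 15046 genes, and 2 (SPRED1 and DUSP5) had an unadjusted p under 0.05, against 23.8%. DESeq2 also called 0, against 13.6%. The largest estimate was that of DUSP5, a log2 difference of 0.94 ± 0.34 (SE) for HKC-8 minus HepG2 (edgeR adjusted p = 0.103). With the replicate number within each line as a block, the DUSP5 difference was 0.90 ± 0.14 (SE) and was called (edgeR adjusted p = 0.000593), where 20.1% of all genes were called. This block also joins HepG2 samples, whose deviations correlated weakly by number (r = 0.162, 0.0611 and 0.181). The DUSP5 difference was also called in 1 fit of all 18 samples (adjusted p = 0.042) and without normoxic HepG2 sample 1 (1.15, 0.0472). For SPRED1 the estimate was -0.31 ± 0.13 (SE) and did not pass (edgeR adjusted p = 0.171). ERRFI1 differed by 0.05 ± 0.17 (SE) and DUSP6 by 0.03 ± 0.28 (SE), with signs that turned when single samples were left out. SPRY1, which was chosen for this contrast and has no test here, had a difference of 4.32 ± 0.17 (SE).

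In normoxia, HepG2 held far more SPRY4, DUSP6 and ERRFI1 than either kidney line, while DUSP4 was at like levels in all 3. Against HKC-8, HepG2 had 54.3-fold more SPRY4 (log2 difference 5.76 ± 0.27, SE), 21.3-fold more DUSP6 (4.42 ± 0.17, SE) and 8.95-fold more ERRFI1 (3.16 ± 0.09, SE), with edgeR adjusted p-values of 1.27e-10, 1.48e-11 and 6.18e-13. SPRED1 ran the other way and was lower in HepG2 than in HKC-8 (log2 difference -1.07 ± 0.10, SE; edgeR adjusted p = 2.22e-07). For SPRY1, given without a test, the log2 difference was 7.52 ± 0.16 (SE). Of the 9 genes, 8 differed between HepG2 and HKC-8, where 83% of all 14806 genes did.

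Within the kidney lines, RCC4 held more SPRY2 (log2 difference 1.87 ± 0.14, SE) and ERRFI1 (0.61 ± 0.08, SE) than HKC-8, and less DUSP6 (-1.93 ± 0.20, SE), SPRY4 (-1.09 ± 0.33, SE) and SPRED1 (-0.90 ± 0.10, SE). These 5 of the 9 passed the edgeR test, against 80.8% of all genes. Between HepG2 and RCC4, 7 of the 9 differed, against 83.3% of all genes, and the exceptions were SPRED1 (log2 difference -0.17 ± 0.10, SE) and DUSP4 (-0.34 ± 0.22, SE). The median of all genes was 0.11 higher in HepG2 than in RCC4 on this scale, beside a SPRY2 difference of 0.35 ± 0.14 (SE) whose call was lost in 5 of 9 fits that left out 1 sample. Without normoxic HepG2 sample 3, DUSP5 no longer differed from HKC-8 (0.22, adjusted p = 0.168) or from RCC4 (0.31, adjusted p = 0.0646). DUSP4 differed between RCC4 and HKC-8 once normoxic HKC-8 sample 2 was left out (0.61, adjusted p = 0.00169), and HepG2 and RCC4 then differed too (-0.40, adjusted p = 0.0127), as they did without normoxic HKC-8 sample 3 (-0.38, adjusted p = 0.0428). SPRED1 also differed between HepG2 and RCC4 without normoxic HepG2 sample 3 (-0.27, adjusted p = 0.0372), without normoxic HKC-8 sample 2 (0.0412) or 3 (0.0199), and with no filter on low counts (0.0395). HKC-8 libraries were also the deepest, and line and depth cannot be told apart in these contrasts.

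Per length of transcript, ERRFI1 was the most abundant member in all 3 lines. In normoxic HKC-8, the level per kilobase was 12.1 ± 0.339 CPM (SD, n = 3) for ERRFI1, 10.1 ± 1.01 for SPRED2, 9.31 ± 1.13 for SPRED1 and 7.10 ± 1.18 for DUSP5, and the other 6 members lay below 2 CPM per kilobase. SPRY1 (0.108 ± 0.0173) and SPRED3 (0.109 ± 0.0195) were lowest and did not differ beyond their spread. In hypoxic HKC-8, SPRY1 (2.75 ± 0.0769 CPM per kilobase) had a mean above those of DUSP6 (2.32 ± 0.747), SPRY2 (2.01 ± 0.453), DUSP4 (1.28 ± 0.419) and SPRY4 (0.713 ± 0.263), and below that of DUSP5 (9.64 ± 1.94). The gap to DUSP6 was within the spread of DUSP6. In normoxic HepG2, ERRFI1 stood at 107 ± 13.4 CPM per kilobase, followed by DUSP6 (32.3 ± 3.87), SPRY4 (28.3 ± 4.90), SPRED2 (22.5 ± 2.21) and SPRY1 (19.8 ± 2.08). The gaps between DUSP6 and SPRY4 and between SPRED2 and SPRY1 were no larger than about the spread of the pair, while ERRFI1 stood clear of all others.

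Over the 18 samples, the genes whose log2 CPM ran most like that of SPRY1 were SH3PXD2B (Pearson's r = 0.975), C2orf72 (0.957), PDLIM4 (0.955), SYNE1 (0.953) and RNF122 (0.951), of 15306 genes. SH3PXD2B, an adaptor of podosomes, stood at 1.498 CPM in normoxic HKC-8, 4.87 in hypoxic HKC-8, 3.68 and 5.83 in RCC4, and 19.1 and 24.9 in HepG2. As with SPRY1, normoxic HKC-8 was lowest and hypoxic HepG2 highest, but hypoxic RCC4 lay above hypoxic HKC-8, unlike SPRY1. Of the other members, ERRFI1 had the highest r with SPRY1 (0.913, rank 55), followed by SPRED2 (0.862) and SPRY4 (0.816), and SPRED1 (-0.43) and DUSP4 (-0.12) were negative. These values are a description with no test, since the points share 3 cell lines and the level per line carries most of the pattern.

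Other MAP kinase phosphatase genes and SPRY3 were listed beside the members, and SPRY3 could not be tested. DUSP1, an immediate early phosphatase of several MAP kinases, rose in all 3 lines. It was 25.4, 31.3 and 21.3 CPM in normoxic HKC-8 and 61.3, 57.2 and 46.7 CPM in hypoxic HKC-8, and its log2 fold change was 1.09 ± 0.15 (SE) for HKC-8, 1.60 ± 0.04 for RCC4 and 0.90 ± 0.09 for HepG2 (edgeR adjusted p = 0.00219, 2.96e-19 and 5.44e-06). Of the 7 tested in RCC4, DUSP1 rose and 5 fell (DUSP2, DUSP7, DUSP8, DUSP9 and DUSP16), as DUSP5 did, where 24.2% of all genes fell. In HKC-8, 1 of 7 rose and 0 fell (3 and 1 with the block), and in HepG2 3 of 6 rose (DUSP1, DUSP8 and DUSP9) and 0 fell. Of 10 other brakes on receptors and RAS, 1 rose in HKC-8 (LRIG1, log2 fold change 0.83 ± 0.13, SE), 5 rose and 1 fell in RCC4, and 4 rose and 1 fell in HepG2. Beside these counts, 11.2% of all genes rose and 9.12% fell in HKC-8 (21% and 21.6% with the block), 25.9% and 24.2% in RCC4, and 19.9% and 19.2% in HepG2.

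Of 10 output genes of ERK tested in HKC-8, 4 rose (ETV5, FOS, IER3 and PHLDA1) and 0 fell, where 11.2% of all genes rose and 9.12% fell, with a median log2 fold change of 0.22 beside 0.43 for the 9 members. FOS, an immediate early factor, rose in HKC-8 (log2 fold change 1.70 ± 0.20, SE) and HepG2 (1.53 ± 0.20, SE) and was not called in RCC4 (-0.11 ± 0.38, SE). FOS held only 13 to 28 counts per RCC4 sample, and its sign changed without hypoxic sample 1, so its response there is not settled. ERRFI1 also did not pass in RCC4, at 53.5 to 60.3 CPM. IER3, an early response gene, rose in all 3 lines (1.28 for HKC-8, 0.82 for RCC4 and 0.93 for HepG2). In RCC4, 5 of 10 rose and 1 fell, against 25.9% and 24.2% of all genes. In HepG2, 4 of 9 rose and 0 fell, against 19.9% and 19.2%. With the replicate block in HKC-8, 4 rose and 4 fell, against 21% and 21.6% of all genes. Those that fell were CCND1, the cyclin D1 gene (-0.73), FOSL1, a FOS relative (-0.81), EPHA4 (-0.32) and EPHA2 (-0.21), all named after their values were seen. The members called with the same block in HKC-8 all rose.

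Upstream of the inhibitors, ligand and receptor genes changed in each line, with VEGFA the ligand called in all 3. TGFA, a ligand of the EGF receptor that ERRFI1 blocks, rose in HKC-8 from 9, 3 and 6 counts to 50, 40 and 22 (log2 fold change 2.60 ± 0.51, SE; edgeR adjusted p = 0.00957), and in RCC4 from a mean of 136 to 296 CPM (1.13 ± 0.03, SE). In HepG2 it did not pass (0.07 ± 0.06, SE), and the call in HKC-8 was lost without both samples of number 2 (adjusted p = 0.0532). PDGFB rose in HepG2 (2.46 ± 0.11, SE), and in HKC-8 its log2 difference of 1.18 ± 0.39 (SE) did not pass (edgeR adjusted p = 0.0626), but passed with the block (0.00605), with DESeq2 (0.027), in 1 fit of all 18 samples (0.00311) and without normoxic sample 3 (0.042) or hypoxic sample 2 (0.0293). VEGFA, a textbook HIF target, rose in all 3 lines (1.72, 0.87 and 1.38). AREG, another EGF receptor ligand, was called lower in RCC4 (-1.66 ± 0.58, SE), on 1 normoxic sample of 104 counts beside 22 and 17; without it the difference was -0.23 (adjusted p = 0.748). In all, 2 of 9 ligands tested rose and 1 fell in HKC-8 (3 and 3 with the block), 2 of 11 rose and 2 fell in RCC4, and 2 of 8 rose and 0 fell in HepG2. The shares of all genes that rose and fell were 11.2% and 9.12% in HKC-8 (21% and 21.6% with the block), 25.9% and 24.2% in RCC4, and 19.9% and 19.2% in HepG2.

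EGFR, the receptor that ERRFI1 inhibits, and PDGFRB, a receptor of platelet-derived growth factors, rose in all 3 lines. The log2 fold change of EGFR was 0.91 ± 0.11 (SE) for HKC-8, 0.74 ± 0.04 for RCC4 and 0.43 ± 0.09 for HepG2, and that of PDGFRB was 1.24 ± 0.23, 0.53 ± 0.05 and 1.42 ± 0.07. Of the receptor genes tested, 4 of 10 rose and 0 fell in HKC-8, 5 of 9 rose and 3 fell in RCC4, and 4 of 9 rose and 0 fell in HepG2. Of 18 genes of the RAS-ERK core, 2 rose and 1 fell in HKC-8 (4 and 2 with the block), 7 rose and 6 fell in RCC4, and 3 rose and 1 fell in HepG2. Over all genes, 11.2% rose and 9.12% fell in HKC-8 (21% and 21.6% with the block), 25.9% and 24.2% in RCC4, and 19.9% and 19.2% in HepG2. The docking protein gene GAB1 (0.73 for HKC-8, 0.30 for RCC4 and 0.32 for HepG2) and MAP2K1, which encodes a MEK kinase (0.46, 0.52 and 0.71), rose in all 3, although GAB1 did not pass in RCC4 (adjusted p = 0.153) or HepG2 (0.0798) when all 18 samples were fitted together. In HKC-8 the GAB1 call was lost without normoxic sample 1 (adjusted p = 0.0968), normoxic sample 2 (0.0759), hypoxic sample 1 (0.109) or hypoxic sample 3 (0.0788), and the MAP2K1 call without normoxic sample 1 (0.0514) or hypoxic sample 1 (0.0666). ERRFI1 rose in HKC-8 and HepG2 beside its own target EGFR, whereas in RCC4 EGFR rose and ERRFI1 did not pass.

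**Figure D4:**
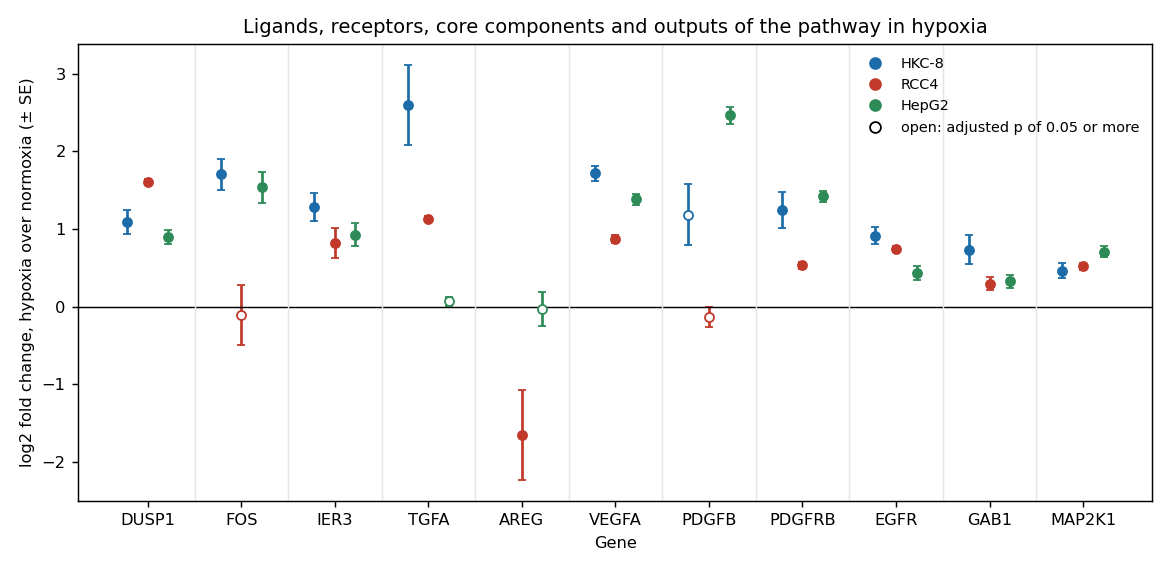
Log2 fold change of hypoxia over normoxia with its standard error for the ligands, receptors, core components, outputs and phosphatase named by rule, by cell line (3 against 3 samples each), with open circles where the adjusted p was 0.05 or more. DUSP1, IER3, VEGFA, PDGFRB, EGFR, GAB1 and MAP2K1 lie above 0 in all 3 lines, while TGFA (2.60 in HKC-8) and PDGFB (2.46 in HepG2) are far higher in 1 line than in another.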

How the data were processed

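PolyA+ RNA-seq libraries of 18 samples were examined. The authors trimmed adapters, aligned reads to GRCh37 with Tophat 2.0.8b and bowtie 1.0.0, dropped fragments without a unique position, and counted reads per UCSC gene with HTSeq 0.5.4p3; the deposited files hold those whole-number counts, unnormalised, for 23106 genes. Dropping such fragments lowers counts of genes with close copies. The counting mode was intersection-strict, which leaves out reads shared by overlapping genes. Overlap of the members with other counted genes was not tested.

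Everything after the counts was computed here in R 4.3.3 with edgeR 4.0.16 (filterByExpr, TMM, glmQLFit and glmQLFTest, Benjamini-Hochberg adjustment over all genes, threshold 0.05), 1 fit per cell line for the response to hypoxia, 1 fit of 12 samples for the interaction of oxygen with line (HKC-8, HepG2), 1 fit of the 9 normoxic samples for levels, and DESeq2 1.42.0 as an alternative. SE is the log2 fold change divided by the square root of F. CPM were scaled by TMM over all 18 samples, and likeness to SPRY1 used log2 CPM with a prior count of 2. Lengths are those of the Ensembl canonical transcript. Figures and promoter windows used Python 3.11.15. The tests were checked on simulated data.

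Depth was 40915980 to 97984260 counts per sample, so that 3 counts correspond to 0.0306 to 0.0733 CPM. No 2 replicates agreed within sampling noise.

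The deviations of same-numbered HKC-8 samples from their group means correlated in all 3 pairs (r = 0.113, 0.469 and 0.456 over 13536 genes), so blocked values are given for HKC-8. For number 1 the link was not particular to the number, since normoxic sample 1 had r = 0.119 with hypoxic sample 2. In HepG2, same-number r was 0.162, 0.0611 and 0.181, each higher than with the other numbers. Apart from the interaction, blocked HepG2 values of single genes are given for DUSP5 only. With the block in HepG2, 5 of the 9 members rose and 1 fell, and 7 of 9 ERK output genes rose and 0 fell. Of 10 other brakes 6 rose and 1 fell, and of 18 RAS-ERK core genes 4 rose and 1 fell. The share of all genes called in that fit was not counted, so these counts have no background beside them.

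The members and the gene lists were chosen with earlier results of these data known. Of the lists, genes are named that were called and changed by 1 or more on the log2 scale in a line. Those called in the same direction in all 3 lines are named too. Some others are named after their values were seen, and not every called gene is named.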

Additional observations from a re-analysis of the deposited data

Results flagged for a closer look

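2 ligand genes upstream of the feedback inhibitors responded differently to the same labelled hypoxia in HKC-8 and HepG2 cells, by the interaction test of edgeR. The TGFA response was higher in HKC-8 than in HepG2 by 2.51 on the log2 scale (adjusted p = 0.000646), with all 3 hypoxic HKC-8 samples above all normoxic ones at 22 to 50 counts. Levels in HKC-8 were low, with 9, 3 and 6 normoxic counts. The HKC-8 means were 0.0703 CPM in normoxia and 0.434 in hypoxia, beside 51.3 and 53.8 CPM in HepG2. The HKC-8 response was not called without both samples of number 2 (edgeR adjusted p = 0.0532). The PDGFB response was lower in HKC-8 than in HepG2, with a difference of -1.30 (adjusted p = 0.0404), and the adjusted p was 0.0518 or more in 10 of the 12 fits that each left out 1 sample, reaching 0.104. What lies behind either difference was not tested.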

How the results depend on the processing

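Depth limits SPRY1 in normoxic HKC-8 (19 to 27 counts) and SPRED3 in RCC4 (7 to 41 counts), whose response had the largest standard error of any member in that line (0.45). Each test was repeated with DESeq2, with RLE size factors, unfiltered, with a minimum of 10 counts per sample, in 1 fit of all 18 samples and with the replicate block, as well as leaving out single samples and, chosen after seeing the data, leaving out both HKC-8 samples of number 2. Where calls moved, the cause was not tested, except that leaving out samples lowers the number fitted.

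In HKC-8, 1522 genes were induced and 1235 repressed. These counts became 2503 and 2510 in the fit of all 18 samples, 2836 and 2919 with the replicate block, 925 and 635 without both samples of number 2, and 687 to 1794 and 326 to 1489 when single samples were left out, falling by more than 1.5 times without normoxic sample 1, normoxic sample 2 or hypoxic sample 1 and, for repressed genes, hypoxic sample 3. Of the 9 members, 1 was called, against 3 with DESeq2 (SPRED2, DUSP5 and ERRFI1), 4 with all 18 samples (SPRY2, SPRED2, DUSP6 and ERRFI1), 6 with the block, and 1 to 2 when single samples were left out, where SPRED2 was added without normoxic sample 2 and DUSP5 without hypoxic sample 3. In RCC4, 3318 induced and 3105 repressed genes became 1867 and 1419 with all 18 samples. In HepG2, 5 members were called, against 3 with all 18 samples and 3 to 5 when single samples were left out, with 3 without hypoxic sample 1 or 2. With the replicate block, whose numbers were not taken to pair the HepG2 samples (same-number r = 0.162, 0.0611 and 0.181, each higher than with the other numbers), DUSP5 was also called lower in HepG2 (-0.46, adjusted p = 0.00151), and the block changed no call of a member in RCC4 (r = -0.0106, 0.0332 and 0.0136).

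For the difference between HKC-8 and HepG2, 644 genes were higher and 755 lower, against 1010 and 1209 with all 18 samples, 1363 and 1656 with the block, and 430 to 1000 and 481 to 932 when single samples were left out, moving by more than 1.5 times without normoxic HKC-8 sample 3 (1000 higher) and, for lower genes, without normoxic HepG2 sample 2 (492), hypoxic HepG2 sample 1 (481) or hypoxic HepG2 sample 3 (501). Of the members, 0 were called, against 1 with all 18 samples (DUSP5), 1 with the block, and 0 to 1 when single samples were left out (1 without normoxic HepG2 sample 1).

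Uncalled values near 0 changed sign. SPRED3 in RCC4 over HKC-8 (normoxic level, -0.01) was 0.0401 with DESeq2, 0.0406 with RLE factors and 0.0494 with the minimum of 10 counts, and -0.23 to 0.14 when single samples were left out. Over such fits the ranges were -0.14 to 0.51 for DUSP4 in HKC-8, -0.30 to 0.20 for SPRY4, -0.69 to 0.38 for SPRED3 and -0.30 to 0.17 for FOS in RCC4, and -0.13 to 0.12 for SPRY4 and -0.15 to 0.0444 for AREG in HepG2. For the difference between HKC-8 and HepG2 they were -0.25 to 0.39 for DUSP4, -0.18 to 0.26 for DUSP6, -0.0569 to 0.21 for ERRFI1, -0.0288 to 0.32 for FOS and -0.42 to 0.16 for PDGFRB, and for normoxic levels -0.32 to 0.21 for DUSP4 (HepG2 over HKC-8) and -0.17 to 0.0488 for DUSP5 (RCC4 over HKC-8). No called member changed direction under any alternative run.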
